A study of Mus musculus with 5 samples.

Results

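In cultured bone marrow-derived dendritic cells (BMDCs), the Wnt ligand genes *Wnt6* and *Wnt10b* and the Wnt receptor gene *Fzd8* all had more reads in *Irf8*-OE samples than in control samples. By group means, *Wnt6* was 2.55-fold, *Fzd8* 4.01-fold and *Wnt10b* 7.41-fold higher. These 3 genes were chosen by their presence among 1355 genes that the authors deposited as differentially expressed between the groups, so this difference was used to select them and is described here without a test. Over the whole table the values of the groups did not overlap in 100% of the genes. Expression was read as poly-A RNA-seq, and values are normalized counts, meaning the reads of a gene divided by a size factor of its sample.

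The 5 samples are 3 of *Irf8*-OE and 2 of control cultures. Per the study's methods, *Irf8*-OE mice carry a CAG-LSL-*Irf8*-Flag cassette at the H11 locus, whose stop signal is removed by Cre driven from *Itgax*, the CD11c gene. Control mice are named *Irf8* CAG-LSL in the paper, whereas the sample labels give wild type. Both groups are on the C57BL/6 background, and marrow of 8-week-old mice was grown in 200 ng/ml FLT3L and 5 ng/ml GM-CSF and harvested as non-adherent cells on days 15 to 16. The labels give TNFa stimulation for both groups, although the protocol words it as an option. They do not say whether replicates came from separate mice, so the spread between samples may be technical.

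*Irf8* itself was 2.35-fold higher by group means in the samples labelled as overexpressing it, at 7141, 6519 and 6021 normalized counts against 2835 and 2747. The sex-linked genes went against the labels. All mice are described as male, but *Xist*, the RNA of the inactive X chromosome, had 10772 to 13476 normalized counts in *Irf8*-OE and at most 1.12 in the controls, while *Ddx3y*, *Eif2s3y*, *Kdm5d* and *Uty* of the Y chromosome had 0 reads in all 3 *Irf8*-OE samples. Genotype and sex-linked expression therefore divide the samples in the same way, and their parts in any difference below cannot be told apart. The listed genes held 646123 to 1062127 reads per sample, and the total depth of the libraries is unknown. The dendritic identity of the cultures could be checked only in part, because 3 of 22 dendritic cell markers, *Itgae*, *Cd209a* and *Siglech*, are listed.

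Wnt proteins are secreted, lipid-modified signals that act over short distances. They bind Frizzled receptors on the cell surface, and in the canonical branch, with LRP5 or LRP6 as co-receptors, this stabilizes beta-catenin, which enters the nucleus and works with TCF/LEF factors on target genes. Other branches act on cell polarity or calcium. In bone marrow, Wnt10b is known for promoting the bone-forming fate of stromal cells over the fat-cell fate, Wnt6 is best known from epithelial and mesodermal development and has been described in macrophages, and Fzd8 is among the receptors that carry canonical signals.

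The promoters are shown because they are the control regions in which a response element for IRF8 or for TCF/LEF would be sought first. RefSeq promoter windows of the build GRCm38.p6, from 250 bases before to 50 bases after a gene start, matched *Wnt6* and *Wnt10b*. *Wnt6* (ENSMUSG00000033227) lies on the plus strand of chromosome 1, 74771892 to 74785322, and *Wnt10b* (ENSMUSG00000022996) on the minus strand of chromosome 15, 98770712 to 98778150. The 250 bases before each start, chr1:74771642-74771891 and chr15:98778151-98778400, are printed 5′ to 3′ on the gene's strand, with CpG dinucleotides in capitals.

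Wnt6: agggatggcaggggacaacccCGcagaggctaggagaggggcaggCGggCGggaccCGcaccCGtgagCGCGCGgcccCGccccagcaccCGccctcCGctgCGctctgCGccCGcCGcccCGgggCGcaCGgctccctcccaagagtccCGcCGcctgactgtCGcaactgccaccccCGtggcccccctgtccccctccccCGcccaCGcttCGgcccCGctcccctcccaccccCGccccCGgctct
Wnt10b: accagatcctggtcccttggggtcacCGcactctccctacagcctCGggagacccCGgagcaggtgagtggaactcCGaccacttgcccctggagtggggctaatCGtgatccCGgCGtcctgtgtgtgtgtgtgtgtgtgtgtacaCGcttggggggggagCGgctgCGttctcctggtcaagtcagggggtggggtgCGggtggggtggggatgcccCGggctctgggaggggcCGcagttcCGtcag

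The *Wnt6* window is the richer of these in CpG. It held 31 CpG dinucleotides in 300 bases with a GC content of 76.7%, and 97.3% of 32851 promoter windows had a lower GC content. The *Wnt10b* window held 18 CpG dinucleotides with a GC content of 66.3%, against medians of 7 and 52.7% over all windows, and it carries an uninterrupted run of 11 TG units. Neither window contains, on either strand, the TCF/LEF elements CTTTGAA and CTTTGAT, the interferon-stimulated response element GAAANNGAAA, the ETS-IRF composite element GGAANNGAAA or the TATA box TATAAA. In the same order, these letters occur in 5.14%, 3.73%, 3.44%, 2.72% and 13.6% of all windows, so their absence describes most promoters. The TCF/LEF elements differ from each other in the last letter, and the interferon and composite elements in the second.

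The remaining ligand gene of the table, *Wnt11*, differs in this respect and is shown for contrast, chosen after its sequence was searched. The first of its 2 windows holds a TCF/LEF element on the minus strand, starting 51 bases before the gene start, and a TATA box on the plus strand, starting 29 bases before it. The 250 bases before that start, chr7:98834862-98835111 on the plus strand, have these matches in capitals.

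Wnt11: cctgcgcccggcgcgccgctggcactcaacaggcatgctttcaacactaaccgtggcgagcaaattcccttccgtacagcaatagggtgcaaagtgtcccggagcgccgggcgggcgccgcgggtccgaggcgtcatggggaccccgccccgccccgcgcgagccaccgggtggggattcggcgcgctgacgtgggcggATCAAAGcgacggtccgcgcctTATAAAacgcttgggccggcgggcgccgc

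*Wnt6* was the most abundant of the 3 genes per length. It had 76.7, 57.0 and 65.3 normalized counts in *Irf8*-OE samples 1, 2 and 3, and 28.1 and 24.0 in control samples 1 and 2. In bulk samples such as these, fewer cells of a type and less RNA per cell cannot be told apart. Every *Irf8*-OE sample lay above both controls, and the lowest of them was 2.03-fold above the higher control. The means were 66.3 ± 9.90 (SD, n = 3) and 26.0 ± 2.90 (SD, n = 2), which rest on 206 and 50 reads in all. On the scale log2(normalized counts + 1), which understates changes of low genes, the log2 fold change was 1.31 (limma standard error 0.22). The SD in *Irf8*-OE, 9.90, was close to the 8.00 that counting of reads alone gives at this level. A further gene, Gm29539, is annotated antisense within the span of *Wnt6*, but it overlaps 0 exonic bases of *Wnt6*.

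*Wnt10b* had the largest ratio between the groups and the fewest reads. It had 20.1, 17.7 and 19.1 normalized counts in *Irf8*-OE, and 2.25 and 2.88 in the controls. These control values stand for 2 and 3 reads, so the gene was barely detected there, whereas each *Irf8*-OE sample had 19 to 21 reads. The samples of each group lay close together, and the groups were far apart on this scale. The means were 19.0 ± 1.2 (SD, n = 3) and 2.56 ± 0.45 (SD, n = 2). The ratio of the summed reads per size factor was 7.33 with an exact binomial 95% interval of 2.97 to 23.4, which covers counting error only. The corresponding log2 fold change was 2.49 (limma standard error 0.28), and it depends on the pseudocount, being 2.85 with 0.1 and 1.21 with 10 in place of 1. DESeq2 on the reads gave 2.88 with a standard error of 0.88, so the limma standard error may overstate the precision. The SD of 1.2 in *Irf8*-OE was below the counting SD of 4.28, so the samples differed by less than sampling noise in this gene.

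*Fzd8* (ENSMUSG00000036904) lies on the plus strand of chromosome 18, 9212856 to 9216201, and encodes a receptor of the Frizzled family. It had 88.2, 60.7 and 77.3 normalized counts in *Irf8*-OE, and 14.6 and 23.0 in the controls. The lowest *Irf8*-OE sample was 2.64-fold above the higher control. The means were 75.4 ± 13.8 (SD, n = 3) and 18.8 ± 5.95 (SD, n = 2), with 234 and 37 reads, and the log2 fold change was 1.96 (standard error 0.28). Its replicates were the most scattered of the 3 genes, with SDs above the counting values of 8.53 and 4.43 in *Irf8*-OE and control. Leaving out control sample 1 or 2 gave log2 fold changes of 1.65 and 2.27. Within *Irf8*-OE the order of samples was 1, 3, 2 for all 3 genes.

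**Figure D1:**
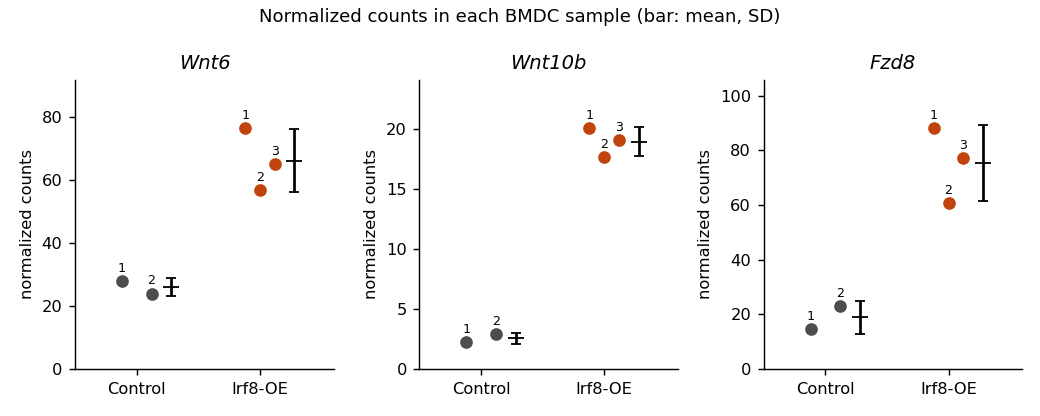
Normalized counts of *Wnt6*, *Wnt10b* and *Fzd8* (linear vertical axes from 0) in the 2 control samples and the 3 *Irf8*-OE samples, with each point numbered by its sample and black bars for mean and SD. In each gene the *Irf8*-OE points lie above both control points, from 57.0 to 76.7 against 24.0 to 28.1 for *Wnt6*, and sample 1 is the highest of the *Irf8*-OE samples.

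This separation is a property of the whole table. Beside the lack of overlap in 100% of the 1355 listed genes, limma called 99.1% of them (Benjamini-Hochberg adjusted p under 0.05 with a log2 fold change beyond 1 in either direction), 58.1% as higher and 41.0% as lower. The 3 genes were all among those called higher, which follows from how they were chosen. By absolute log2 fold change, 27.7% of listed genes had a smaller value than *Wnt6*, 60.1% than *Fzd8* and 75.4% than *Wnt10b*.

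**Figure D2:**
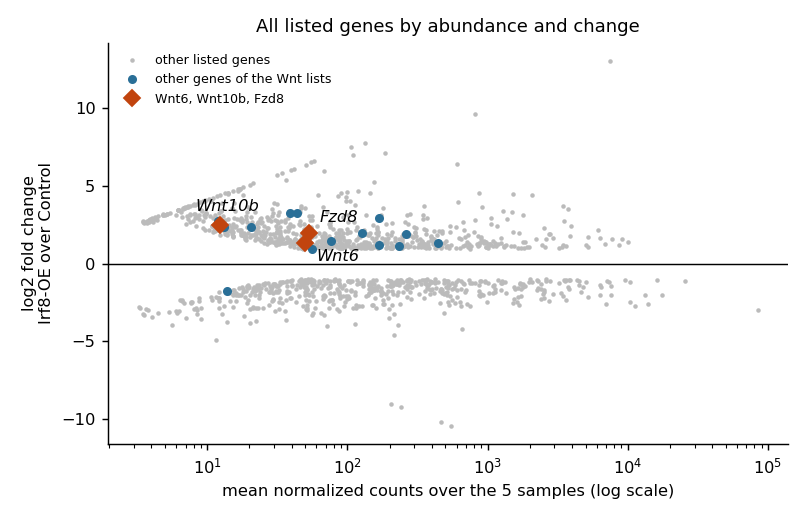
Log2 fold change of *Irf8*-OE over control (vertical axis) against mean normalized counts over the 5 samples (log horizontal axis) for the 1355 listed genes, with *Wnt6*, *Wnt10b* and *Fzd8* as diamonds and other genes of the Wnt lists as filled circles. The empty band around 0 reflects the authors' choice of genes, and the 3 diamonds lie at 1.31, 2.49 and 1.96 among genes of low to middle abundance.

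Levels can be compared between genes only per length. Normalized counts per kilobase of the gene length in the table were 30.2 ± 4.52 for *Wnt6*, 22.5 ± 4.14 for *Fzd8*, 16.9 ± 4.82 for *Wnt11* and 5.58 ± 0.35 for *Wnt10b* in *Irf8*-OE (SD, n = 3). The ranges of *Wnt6* and *Fzd8*, 26.0 to 35.0 and 18.1 to 26.4, overlapped between samples, as did those of *Fzd8* and *Wnt11*, but within each of the 3 samples the order was *Wnt6*, *Fzd8*, *Wnt11*, *Wnt10b*. In the controls the order was *Wnt6* at 11.9 ± 1.32, *Wnt11* at 8.45 ± 1.12, *Fzd8* at 5.62 ± 1.78 and *Wnt10b* at 0.75 ± 0.13 per kilobase (SD, n = 2), and no ranges overlapped. *Fzd8* thus moved from below *Wnt11* in control to the place beside *Wnt6* in *Irf8*-OE. This place may depend on the gene model, since the table gives *Fzd8* 3346 bases and GENCODE vM21 gives its single exon 5974. Its normalized counts divided by 5974 bases give 12.6 per kilobase in *Irf8*-OE and 3.15 in control. The counts belong to the shorter model and leave out any reads on the added bases, so these values are lower limits. The median listed gene had 23.6 per kilobase in *Irf8*-OE, with *Wnt6* above it and *Fzd8* and *Wnt10b* below, and 19.0 in control, with all 3 genes below.

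**Figure D3:**
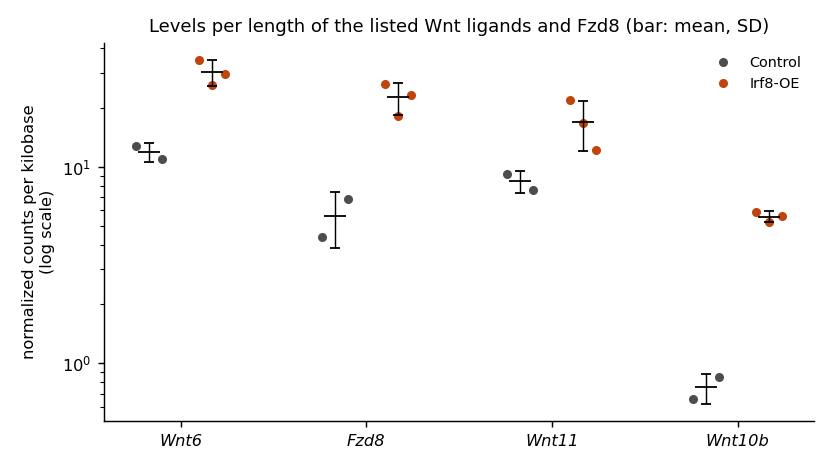
Normalized counts per kilobase (log axis) of the listed Wnt ligand genes and *Fzd8* in control and *Irf8*-OE samples, with points for samples and bars for mean and SD. *Wnt6* is the highest by mean in both groups and *Wnt10b* the lowest, at 0.75 in control and 5.58 in *Irf8*-OE.

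The make-up of the listed ligands differed between the groups, as a description without a test. *Wnt10b* supplied 2.91% and 4.35% of the per-kilobase level of the 3 listed ligands in the controls and 9.44%, 10.9% and 11.8% in *Irf8*-OE. *Wnt6* supplied more than any other listed ligand in each sample, with 56.3% and 56.4% in control and 54.2% to 62.7% in *Irf8*-OE. *Wnt11* supplied 39.4% and 40.7% in control and 25.5% to 34.9% in *Irf8*-OE. The ratio of *Fzd8* to *Wnt6* per kilobase was 0.34 and 0.63 in control, and each *Irf8*-OE sample had 0.70 to 0.78. The other 16 mouse Wnt ligand genes and 9 Frizzled genes are not listed, so these shares are of listed ligands and not of all Wnt transcripts.

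*Wnt11*, a ligand known mostly for non-canonical signaling, lay just at the edge of selection. It had 90.1, 69.1 and 50.2 normalized counts in *Irf8*-OE and 38.2 and 31.7 in the controls, a ratio of means of 2.00, the smallest absolute ratio among the 1268 listed genes with reads in both groups. *Irf8*-OE sample 3 was 1.31-fold above the higher control, and its log2 fold change of 0.94 (standard error 0.28) was not called in limma. Among the ligands, then, *Wnt6* with a log2 fold change of 1.31 is the member nearest that edge on its inner side, and genes outside it were not analysed here.

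Of 127 genes in lists of the Wnt pathway, 17 are listed, of which 15 were called higher and 1 lower in *Irf8*-OE, against 58.1% higher and 41.0% lower over the whole table. Their median log2 fold change was 1.96, and that of all listed genes was 1.15. The 3 chosen genes are among these, and the other 14 were selected by the authors on the same samples, so the counts describe the table. None of 7 genes in a co-receptor list, in which *Smo* was also placed, and neither of the secretion genes *Porcn* and *Wls* is listed.

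All 5 listed genes of an inhibitor list of 19 were called higher, against 58.1% over the whole table, which was itself selected for change. Secreted Frizzled-related proteins bind Wnt ligands outside the cell, and *Sfrp1*, *Sfrp2* and *Sfrp4* had log2 fold changes of 2.96, 2.01 and 3.24. The value of *Sfrp4* (standard error 0.38) rests on 3 and 9 reads in control samples 1 and 2, and was 2.29 under quantile normalization. *Sfrp1* had 236, 259 and 283 normalized counts in *Irf8*-OE and 28.1 and 37.4 in control, more per kilobase than *Wnt6* or *Fzd8* in *Irf8*-OE, at 59.3 ± 5.43 (SD, n = 3). *Dkk3*, placed in this list as a member of the Dickkopf family of secreted proteins, had 386, 358 and 378 normalized counts in *Irf8*-OE. In control it had 93.3 and 103, and whether it inhibits Wnt signals here was not tested. *Apcdd1*, a membrane-bound Wnt inhibitor, was low, with 15.1 to 24.3 normalized counts in *Irf8*-OE and 1.92 and 4.50 in control. These 5 genes summed to 877 to 909 normalized counts in *Irf8*-OE and 169 to 201 in control.

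Of 13 genes that raise Wnt sensitivity, 3 are listed and were called higher, against 58.1% over the whole table. *Rspo2* encodes an R-spondin, a secreted protein that keeps Frizzled receptors at the cell surface, and rose from 5.62 and 6.72 normalized counts in control to 67.1, 85.0 and 52.2 in *Irf8*-OE. *Lgr4*, a receptor for R-spondins, had 103, 96.2 and 105 normalized counts in *Irf8*-OE and 51.7 and 25.9 in control. The log2 fold change of *Lgr4* was 1.44 with all samples and 0.96, no longer called, when control sample 2 was left out. *Gpc4*, a heparan sulfate proteoglycan of the cell surface, had a log2 fold change of 1.21.

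Inside the cell, the TCF/LEF genes went opposite ways. *Tcf7*, which encodes TCF1, had 574, 595 and 591 normalized counts in *Irf8*-OE and 233 and 223 in control. *Lef1*, its relative, was the only listed Wnt gene that fell, with 4.79, 5.60 and 10.0 normalized counts in *Irf8*-OE and 24.7 and 24.0 in control, a log2 fold change of -1.76. The ranges of each gene did not overlap between groups. *Nkd2*, of a family that dampens Dishevelled, rose from 1 and 3 reads in control to 15, 18 and 24 reads in *Irf8*-OE. Of 18 genes in a list of common Wnt targets, 3 are listed, *Tcf7*, *Lef1* and *Wisp1*, and *Wisp1* had a log2 fold change of 2.35 with 29.7, 24.3 and 38.2 normalized counts in *Irf8*-OE against 6.74 and 3.84 in control. *Prickle2*, of the planar polarity branch, had the smallest change among the called genes of the Wnt lists, with a log2 fold change of 1.13.

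**Figure D4:**
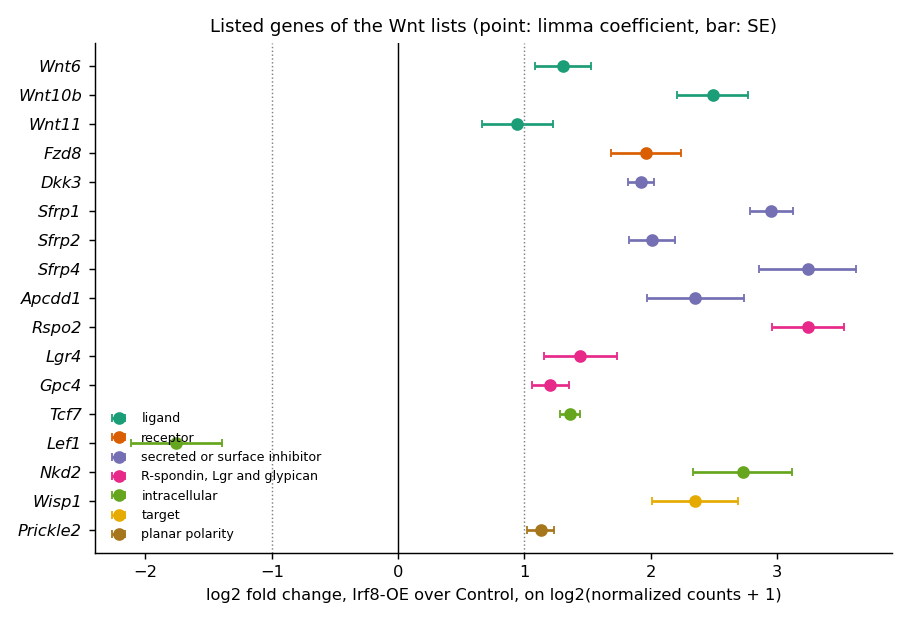
Log2 fold change of *Irf8*-OE over control (horizontal axis, limma coefficient on log2(normalized counts + 1), bars for standard error) for the 17 listed genes of the Wnt lists, coloured by role, with dotted lines at -1 and 1. *Lef1* at -1.76 is the single point left of 0, *Wnt11* at 0.94 lies inside the dotted line, and *Rspo2* and *Sfrp4* lie farthest right.

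The profile of each gene over the 5 samples was compared with 1248 other listed genes that averaged at least 10 normalized counts, as the root mean square difference of log2 values after each gene was centred on its own mean. Nearest to *Wnt6* were *Map3k9*, which encodes a mixed-lineage kinase, at 0.05, *Als2cl* at 0.08 and *Wtip* at 0.09, with a median over all genes compared of 0.94 for *Wnt6*, 0.75 for *Wnt10b* and 0.74 for *Fzd8*. Nearest to *Wnt10b* were the collagen-binding integrin gene *Itga11* at 0.08, the P-selectin gene *Selp* at 0.09 and *Mal2* at 0.10. Nearest to *Fzd8* were *Id4*, a gene for an inhibitor of basic helix-loop-helix factors, at 0.08, *Amotl2* at 0.10 and *Ccdc8* at 0.12. Between the 3 genes themselves the difference was 0.31 between *Wnt10b* and *Fzd8*, 0.42 between *Wnt6* and *Fzd8* and 0.60 between *Wnt6* and *Wnt10b*. The table was selected to separate these groups, and likeness was not separated from the size of the group difference.

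On the chromosome, *Wnt6* and *Wnt10b* each neighbour another Wnt gene. *Wnt10a* lies 6194 bases from *Wnt6*, and *Wnt1* lies 11707 bases from *Wnt10b*, and neither is listed. The nearest listed genes were farther away, *Obsl1* at 693988 bases from *Wnt6*, *Spats2* at 347766 bases from *Wnt10b* and *Greb1l* at 1108976 bases from *Fzd8*. In GENCODE vM21 the principal transcripts of *Wnt6* and *Wnt10b* have 4 and 5 exons, whereas *Fzd8* has a single exon.

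Markers of other cell types were also among the listed genes, and their counts are to be read against 58.1% called higher and 41.0% lower over the whole table. Of 25 stromal markers 13 are listed, with 12 called higher and 1, *Lepr*, lower, and their summed level was 15492 to 16919 normalized counts in *Irf8*-OE and 4893 to 5110 in control. *Col1a2*, *Sparc* and *Col1a1* had the most normalized counts of them over the 5 samples, without regard to length. Mast cell and basophil markers gave 2 called higher and 11 lower of 13 listed from 17. Their sums were 40038 to 44481 in *Irf8*-OE and 259044 to 263439 in control, with most normalized counts from *Cpa3*, *Tpsb2* and *Il1rl1*. The 2 called higher were *Mcpt8*, with group means of 1233 in *Irf8*-OE and 178 in control, and *Prss34*, with 1453 and 118. The sums therefore do not describe every marker of this list. All 8 listed of 20 B-lineage markers were called higher, with sums of 4776 to 5557 against 262 to 318, and among them *Jchain*, *Mzb1* and *Igha* had 0 reads in control sample 1. All 5 listed of 15 macrophage markers were higher, with sums of 21322 to 26067 against 4082 to 4263. The part of any of these cells in the levels of *Wnt6*, *Wnt10b* and *Fzd8* was not tested.

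The remaining marker lists had 1 to 5 listed genes each, and the macrophage list also had only 5. Calls of so few genes are given beside the 58.1% higher and 41.0% lower over the whole table, and no departure from these shares was tested. Neutrophil markers gave 3 higher, *Mpo*, *Prtn3* and *Elane*, and 1 lower, *Ly6g*, of 4 listed from 12. The sums were 1750 to 1897 in *Irf8*-OE and 467 to 542 in control, but *Mpo* alone had 943 to 1048 in *Irf8*-OE. *Ly6g* went the other way, with group means of 9.68 in *Irf8*-OE and 164 in control. T and NK cell markers gave 3 higher, *Cd4*, *Cd2* and *Cd3e*, and 2 lower, *Gzmb* and *Eomes*, of 5 listed from 15. *Cd3e* had 0 reads in both controls. The sums were 425 to 467 in *Irf8*-OE and 1200 to 1325 in control, but *Gzmb* alone had 1137 and 1241 in the controls. Endothelial markers gave 2 higher, *Tie1* and *Esam*, and 1 lower, *Pecam1*, of 3 listed from 10. The sums were 1041 to 1083 against 2607 to 2707, but *Pecam1* alone had 2662 and 2570 in the controls. The single listed epithelial marker of 8, *Cdh1*, had 2230 to 2593 normalized counts in *Irf8*-OE and 594 to 625 in control. The 3 listed dendritic cell markers summed to 165 to 199 normalized counts in *Irf8*-OE and 101 to 134 in control, with *Itgae* and *Siglech* higher and *Cd209a* lower. Of these, *Siglech* had 0 reads in both controls and 15 to 16 reads in each *Irf8*-OE sample.

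The size of the group difference in these genes moved with the processing. Quantile normalization, which forces the same distribution of listed genes on every sample, gave log2 fold changes of 0.91 for *Wnt6*, 0.98 for *Wnt10b* and 1.43 for *Fzd8*. It lowered the median over all listed genes from 1.15 to 0.79, so that relative to that median *Wnt6* moved from 0.16 to 0.12, *Fzd8* from 0.82 to 0.65 and *Wnt10b* from 1.35 to 0.19. *Wnt6* and *Wnt10b* thus fell below the threshold of 1 and lost their call under quantile normalization, while all 3 genes stayed above 0 under each of the alternatives tried.

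**Figure D5:**
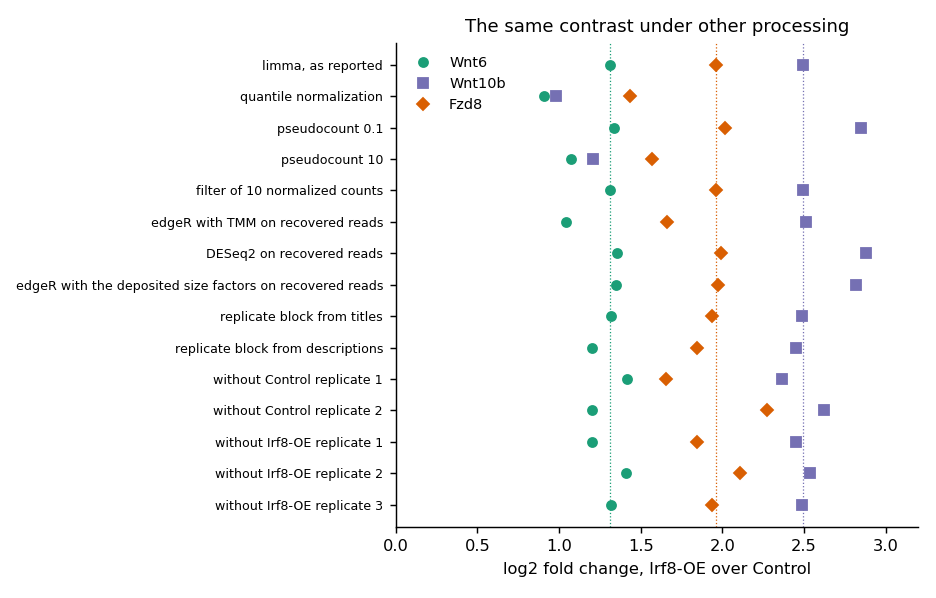
Log2 fold change of *Irf8*-OE over control (horizontal axis from 0) of *Wnt6*, *Wnt10b* and *Fzd8* under the reported limma fit and 14 alternatives listed on the vertical axis, with dotted lines at the reported values. *Wnt10b* moves most, from 0.98 under quantile normalization to 2.88 in DESeq2, and all points lie right of 0.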

How the data were processed

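RNA-seq of BMDCs covered 3 *Irf8*-OE and 2 control samples, grouped by sample titles. The authors deposited 1 table of normalized counts (a signal, the reads of each sample over its size factor) holding 1355 genes, which they had selected by corrected p (0.05) and by a change of more than 1 on the log2 scale. Columns of the authors' own fold changes and p-values were not used. The submitters' processing notes name fastp, HISAT2 2.0.5, featureCounts 1.5.0-p3, DESeq2 1.20.0, edgeR 3.22.5 and the build mm10. Strand use in counting is not given in the sources used here. Of the listed genes, 1354 are in GENCODE vM21 and 1313 have the same start and end there.

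Genes were fitted across the whole table with limma 3.58.1 (R 4.3.3, trend) on log2(normalized counts + 1), two-sided, without covariates, with Benjamini-Hochberg adjustment over 1355 genes. Reads were recovered as whole multiples of 1 step per sample, within 0.01 of a read, for 100% of values. For sample 3 of *Irf8*-OE 1 step is worth 1.004 normalized counts. A count of up to 3 reads was taken as barely detected. Intervals are exact binomial (scipy 1.17.1) and cover counting error only. Motifs were searched in 32851 RefSeq windows, 888 listed genes having at least 1.

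The genes, lists and motifs were chosen with earlier results of these data known. The genes named are the 3 genes, *Irf8*, the listed genes of the Wnt and sex-linked lists, the 3 nearest profiles per gene and up to 3 abundant markers per cell type list. Other markers and neighbouring genes were named after their values were seen. Each test across genes was first run on simulated counts. Alternatives were quantile normalization, pseudocounts of 0.1 and 10, a filter of 10 normalized counts in every sample of 1 group, edgeR 4.0.16 and DESeq2 1.42.0 on recovered reads, a block for replicate number, and omission of each sample in turn.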

Additional observations from a re-analysis of the deposited data

How the results depend on the processing

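Of 112 values recomputed under the alternatives, 97 kept their direction and moved by less than the spread between replicates or by less than 1.5-fold in a count, 15 moved further and 0 reversed. Quantile normalization called 509 listed genes higher in place of 787, and gave log2 fold changes of 0.91 for *Wnt6*, 0.98 for *Wnt10b*, 1.43 for *Fzd8* and 1.75 for *Irf8*, so that *Wnt6* and *Wnt10b* were no longer called. A pseudocount of 10 gave 1.08 for *Wnt6*, 1.21 for *Wnt10b* and 1.57 for *Fzd8*, and a pseudocount of 0.1 gave 2.85 for *Wnt10b*. TMM scaling over the listed genes in edgeR lowered the median of all listed genes to 0.84 and gave 1.04 for *Wnt6* and 0.92 for *Irf8*. On recovered reads *Wnt10b* was 2.88 in DESeq2, which called 1354 genes. It was 2.82 in edgeR with the deposited size factors, which called 1353 and was chosen after seeing the data. The DESeq2 standard errors were 0.37 for *Wnt6*, 0.88 for *Wnt10b* and 0.40 for *Fzd8*, against 0.22, 0.28 and 0.28 in limma. With each sample left out in turn, a lone control being assumed to vary like the other samples, the log2 fold changes ranged from 1.2 to 1.42 for *Wnt6*, 2.36 to 2.62 for *Wnt10b*, 1.65 to 2.27 for *Fzd8* and 1.17 to 1.29 for *Irf8*, and 14 to 16 listed Wnt genes were called higher. Listed Wnt genes called higher numbered 11 after quantile normalization and 13 with TMM, against 15. The filter on low values left *Wnt6*, *Wnt10b* and *Fzd8* in the table.

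The replicate numbers of the titles and of the descriptions differ for the controls, and nothing says that they pair samples. With a replicate block from titles *Wnt6* was 1.32, *Wnt10b* 2.49 and *Fzd8* 1.94, and from descriptions 1.2, 2.45 and 1.84. Each block leaves 1 *Irf8*-OE sample unmatched. These fold changes therefore equal those with *Irf8*-OE sample 3 or sample 1 left out, and are no separate checks among the 112 values. Over genes averaging at least 10 normalized counts, deviations of same-numbered samples correlated at 0.03 for both pairs of titles. For those of descriptions the values were -0.03 and 0.002. With 2 controls the deviations of each mirror those of the other, so the pairs are not independent and these values cannot decide whether samples are paired. Control values of *Wnt10b* rest on 5 reads in all, which limits the precision of its ratio.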
